A study of Mus musculus with 12 samples.

Results

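The SOX genes described here are 8 chosen members of the family with known parts in neural progenitors and glia. Sox1, Sox2 and Sox3 belong to subgroup B1 and Sox21 to subgroup B2. Sox4 and Sox11 belong to subgroup C, and Sox8 and Sox9 to subgroup E. All 8 were found by gene symbol, on 1 line each, among 53932 gene identifiers. These were measured by RNA sequencing of total RNA from cultured C57BL/6 mouse cells. The series holds 12 libraries in 4 groups of 3, and its title concerns metabolites of one-carbon metabolism and cell identity. NSC are neural stem cells from cortex at E14.5, kept as free-floating neurospheres with the growth factors EGF and FGF2, each at 20 ng/mL. Astrocytes were cortical cells kept in 10% serum, made either from postnatal cortex sorted for the astrocyte surface protein GLAST or from neurospheres. The labels do not say which source these libraries had, and they give the age as E14.5. MIM-Astrocytes had been moved from that medium to MIM, a serum-free medium with FGF2 at 20 ng/mL and up to 6 metabolites: cysteine, methionine, glycine, threonine, S-adenosylmethionine and putrescine. They were taken no later than the fifth day in MIM, and which metabolites they received is not given. Glioblastoma is a culture of tumour cells whose labels give cerebella as tissue and E18.5 as age, and how it was made is not stated. Medium, serum and growth factors differ between the groups together with the cell type, so their parts cannot be told apart. Whether the 3 libraries within a group stem from different cultures or mice is not given, so a p-value here reflects only how much these libraries vary, which may be technical.

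SOX proteins are transcription factors that bind the minor groove of DNA through an HMG box and bend it, and they usually act beside a partner factor such as a POU or paired-box protein. The B1 proteins keep neural progenitors dividing and undifferentiated, and the B2 protein Sox21 is known as their counterpart that favours differentiation. The C proteins act in committed precursors and young neurons, and the E proteins act in glia, with Sox9 at the onset of gliogenesis and in astrocytes and Sox8 mostly in the oligodendrocyte lineage.

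The box is what makes these genes 1 family and what could let sequenced fragments of 1 member fall on another, so the same 27 coding bases at its start are shown for each member, from the GENCODE M21 transcripts on GRCm38. Capitals mark bases that differ from Sox2.
Sox1: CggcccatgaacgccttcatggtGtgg
Sox2: aggcccatgaacgccttcatggtatgg
Sox3: CgAcccatgaacgcGttcatggtGtgg
Sox21: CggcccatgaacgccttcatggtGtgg
Sox4: CggcccatgaacgccttTatggtGtgg
Sox11: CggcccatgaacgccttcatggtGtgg
Sox8: CggcccatgaaTgccttcatggtGtgg
Sox9: CgAcccatgaacgccttcatggtGtgg
The stretch was letter for letter the same in Sox1, Sox11 and Sox21, which belong to 3 different subgroups. Over 79 residues of the box, translated from the same transcripts, identity was 89.9% to 98.7% in the 5 pairs within a subgroup and 58.2% to 92.4% in the 23 pairs between subgroups. The highest value within a subgroup was that of Sox8 with Sox9, and the highest between subgroups that of Sox2 with Sox21. Outside the box the proteins part, and their lengths ran from 276 residues in Sox21 to 507 in Sox9. The longest run of bases shared by 2 member transcripts was between 12 and 48 bases, with the longest between Sox4 and Sox11 and 45 bases between Sox1 and Sox3. How the authors assigned fragments that match more than 1 gene is not given in the sources used here, so a fragment from such a run is uncertain.

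Levels are FPKM, fragment counts divided by transcript length and by the library's total of mapped fragments, as the authors deposited them, and all 8 members passed 1 FPKM in all 12 libraries. Between 14461 and 14919 genes reached that level in a library, and the sum of all values ran from 514728 to 979106. Protein-coding genes held 60.9% of the sum in Astrocytes, 49.2% in MIM-Astrocytes, 45.4% in Glioblastoma and 42.3% in NSC, so the libraries differed in make-up as well as in the members. The interval deposited with each value reached from 1.7% (Sox2) to 18.4% (Sox3) of the value to either side, and it covers counting and assignment error only. Differences below are of log2(FPKM + 1), with the standard error (SE) and the adjusted p of limma, fitted over 16982 genes with all 12 libraries, and a gene is called where the adjusted p is below 0.05. The added 1 understates the change of the weakest genes. All pairs of groups share their libraries with other pairs, so the 6 comparisons are not independent of each other. In such bulk samples fewer cells of a type and less RNA per cell cannot be told apart.

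The members were lowest in Astrocytes, apart from Sox9, which was highest there, and apart from Sox3, which was lower still in Glioblastoma. In MIM-Astrocytes 7 members were called higher than in Astrocytes, where 34.8% of all genes tested were, and Sox9 was called lower, where 26.6% were. The same 7 were higher in NSC than in Astrocytes (37.7% of genes) and Sox9 was lower (33.4% of genes). Within a subgroup the members did not keep the same order of groups: Sox2 and Sox11 were highest in Glioblastoma, while the other 5 that were higher in NSC than in Astrocytes were highest in NSC. The plot of the level in each library shows these orders.

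**Figure D1:**
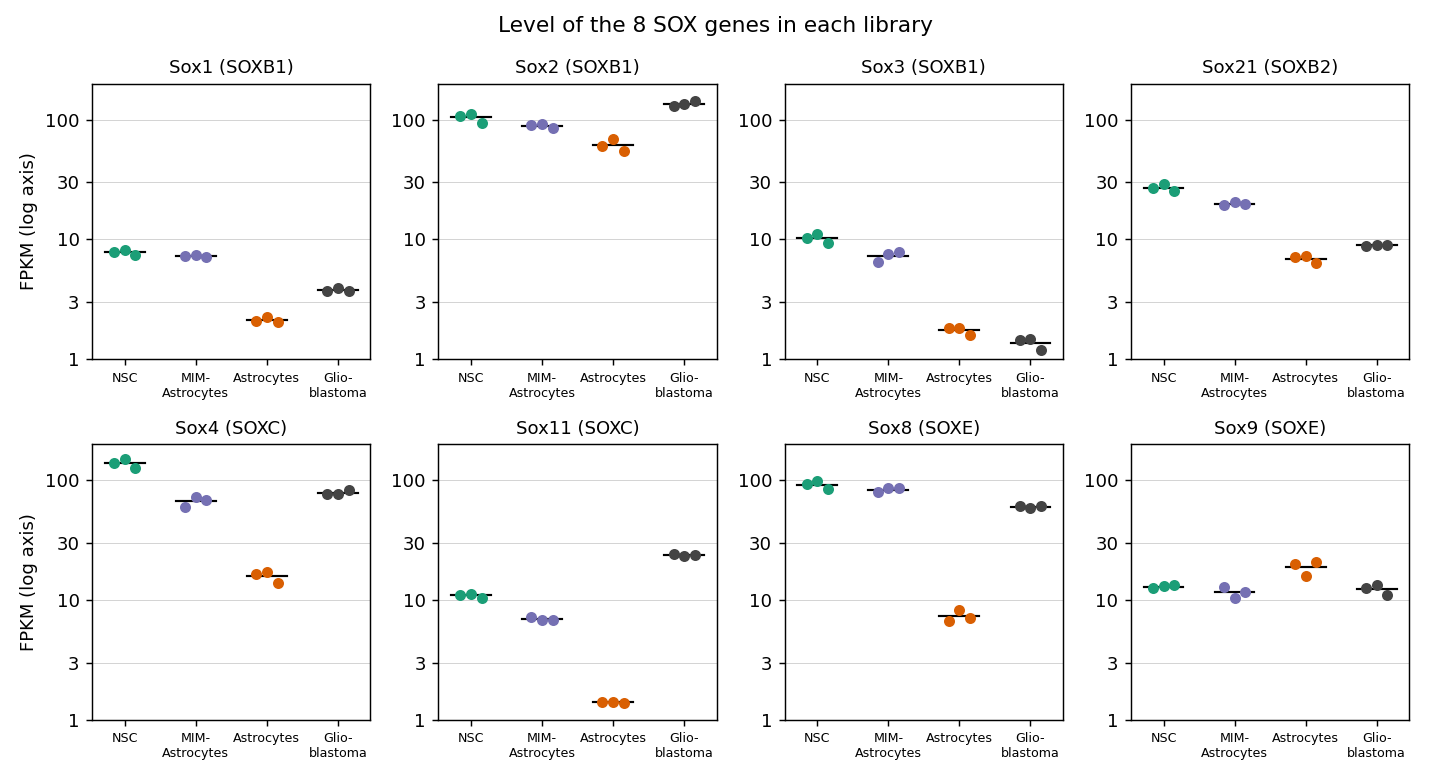
FPKM of each of the 8 genes (vertical log axis) in the 4 groups, with 1 point per library and a bar at the mean of 3 libraries. Sox8 spans 6.65 to 99.6 FPKM with Astrocytes far below the rest, while Sox9 stays between 10.4 and 21 FPKM with Astrocytes on top.

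Sox2, the B1 factor that helps hold neural stem cells in their state, had the highest mean of the members in every group but NSC. It is a gene of 1 exon (ENSMUSG00000074637.7, GRCm38 chr3:34650405-34652461, plus strand). It stood at 106.8, 111.8 and 94.3 FPKM in NSC, at 90.4, 92.1 and 84.7 in MIM-Astrocytes, at 60, 68.5 and 54.5 in Astrocytes and at 130.5, 135.3 and 143.3 in Glioblastoma. No 2 groups overlapped, although NSC replicate 3 came close to MIM-Astrocytes replicate 2. The mean was 89.1 ± 3.87 (SD, n = 3) in MIM-Astrocytes against 61 ± 7.07 in Astrocytes, a log2 difference of 0.54 (SE 0.09, adjusted p = 0.000464). That call was lost when each library was scaled to a common FPKM total (0.21, adjusted p = 0.0716). NSC, at 104 ± 9.06, exceeded Astrocytes by 0.77 (adjusted p = 2.76e-05), or by 0.37 at that total. MIM-Astrocytes against NSC gave -0.22 with a 95% interval of -0.43 to -0.02 and an adjusted p of 0.0623, so the difference was not called. It was called without NSC replicate 3 (-0.29, adjusted p = 0.0257).

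Glioblastoma, at 136 ± 6.48 FPKM of Sox2, was above each other group. The log2 difference was 1.15 to Astrocytes (SE 0.09, adjusted p = 7.72e-07) and 0.61 to MIM-Astrocytes (adjusted p = 0.000163). The difference to NSC was 0.39 (adjusted p = 0.00341), and it was not called under any of the 4 other scalings between libraries, where it lay between 0.04 and 0.17. Its direction stayed the same in each of them. At a common FPKM total the differences to Astrocytes and MIM-Astrocytes were 0.54 and 0.33, both still called.

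Sox2 lies inside the span of Sox2ot, a long noncoding RNA on the same strand with which it shares no exon bases. Sox2ot stood at 6.68 ± 0.137 FPKM in NSC, 4.77 ± 0.222 in MIM-Astrocytes, 11.5 ± 0.76 in Astrocytes and 11.1 ± 0.481 in Glioblastoma. It was thus lower where Sox2 was higher in MIM-Astrocytes against Astrocytes (-1.12, adjusted p = 3.84e-08) and in NSC against Astrocytes (-0.71, adjusted p = 1.04e-06). In Glioblastoma against NSC both were higher, Sox2ot by 0.65 (adjusted p = 2.23e-06). Sox2 over Sox2ot came to 18.7 ± 1.43 in MIM-Astrocytes, 15.6 ± 1.66 in NSC, 12.3 ± 1.05 in Glioblastoma and 5.31 ± 0.851 in Astrocytes.

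Sox1, the B1 factor whose onset marks the neural plate, was far weaker than Sox2 throughout (ENSMUSG00000096014.1, chr8:12395295-12400126, plus strand, 1 exon). It stood at 7.89, 8.22 and 7.36 FPKM in NSC, at 7.28, 7.35 and 7.11 in MIM-Astrocytes, at 2.09, 2.24 and 2.03 in Astrocytes and at 3.73, 3.91 and 3.73 in Glioblastoma. NSC and MIM-Astrocytes were high and near each other, Glioblastoma was between, and Astrocytes were low, with no overlap. MIM-Astrocytes exceeded Astrocytes by 1.4 on the log2 scale (SE 0.05, adjusted p = 2.69e-09), and NSC did so by 1.5 (adjusted p = 1.16e-09). MIM-Astrocytes against NSC came to -0.1 with a 95% interval of -0.21 to 0.01 (adjusted p = 0.122). This too was called without NSC replicate 3 (-0.13, adjusted p = 0.0454). Glioblastoma lay below NSC (-0.88, adjusted p = 8.98e-08). It exceeded Astrocytes by 0.62 (adjusted p = 7.71e-07), but by 0.16 and without a call at a common FPKM total (adjusted p = 0.101). The overlapping transcript Sox1ot, on the same strand, ran from 0.108 to 0.862 FPKM, below the level tested. Gm25239, on the same strand, shares 86 exon bases with Sox1 and is listed at 0 in all 12 libraries.

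Sox3, the X-linked B1 factor, acts in neural progenitors and in the pituitary (ENSMUSG00000045179.9, chrX:60891366-60893430, minus strand, 1 exon). It stood at 10.3, 11.2 and 9.3 FPKM in NSC, at 6.41, 7.58 and 7.81 in MIM-Astrocytes, at 1.82, 1.8 and 1.59 in Astrocytes and at 1.45, 1.46 and 1.19 in Glioblastoma. The 4 groups did not overlap, and those of Astrocytes and Glioblastoma were both near the floor of the genes tested. MIM-Astrocytes exceeded Astrocytes by 1.59 (SE 0.09, adjusted p = 8.31e-08) and lay below NSC (-0.44, adjusted p = 0.00151). Glioblastoma lay below NSC by the widest margin of any member in that comparison (-2.25, adjusted p = 5.85e-09). In Glioblastoma Sox3 and Sox2 thus stood apart: Sox2 was at its highest and Sox3 at its lowest. Glioblastoma against Astrocytes gave -0.21 (adjusted p = 0.0439). That call was lost without Glioblastoma replicate 1 (0.0553), 2 (0.0521) or 3 (0.154) and without Astrocytes replicate 1 (0.116) or 2 (0.103), all as adjusted p.

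Sox21, of subgroup B2, counters the B1 factors on shared sites (ENSMUSG00000061517.8, chr14:118233232-118237030, minus strand, 1 exon). It stood at 26.9, 28.8 and 25.6 FPKM in NSC, at 19.3, 20.6 and 19.6 in MIM-Astrocytes, at 7.08, 7.24 and 6.35 in Astrocytes and at 8.8, 9.02 and 8.93 in Glioblastoma. Its order of groups was that of Sox1 and not that of Sox2, and the groups did not overlap. MIM-Astrocytes exceeded Astrocytes by 1.4 (SE 0.06, adjusted p = 9.14e-09) and lay below NSC (-0.43, adjusted p = 0.000118). Glioblastoma lay below NSC (-1.5, adjusted p = 5.59e-09) and below MIM-Astrocytes (-1.07, adjusted p = 6.81e-08). Glioblastoma exceeded Astrocytes by 0.33 (adjusted p = 0.000353), but this turned to -0.22 at a common FPKM total (adjusted p = 0.0195) and to 0.06 with median-of-ratios scaling (adjusted p = 0.14). An antisense gene, Gm4675, shares 713 exon bases with Sox21 and ran from 0.626 to 2.31 FPKM. The strand setting of the counting is not given, so reads of such pairs cannot be told apart.

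Sox4, of subgroup C, acts in precursors as they leave the cycle, and in tumours it is a target of TGF-beta (ENSMUSG00000076431.4, chr13:28948919-28953713, minus strand, 1 exon). It stood at 141.1, 149.9 and 126.7 FPKM in NSC, at 59.8, 72.9 and 68.4 in MIM-Astrocytes, at 16.5, 17.3 and 13.9 in Astrocytes and at 77, 76.8 and 83.7 in Glioblastoma. NSC were highest, Glioblastoma and MIM-Astrocytes lay close together without overlap, and Astrocytes were lowest. The mean was 67 ± 6.64 in MIM-Astrocytes against 15.9 ± 1.78 in Astrocytes, a log2 difference of 2.01 (SE 0.1, adjusted p = 3.92e-08). MIM-Astrocytes lay below NSC (-1.05, adjusted p = 1.1e-05), so Sox4 was the member farthest from the NSC level in MIM-Astrocytes. NSC exceeded Astrocytes by 3.06 (adjusted p = 1.15e-09), and Glioblastoma did so by 2.25 (adjusted p = 7.66e-09). Glioblastoma against MIM-Astrocytes gave 0.24 with a 95% interval of 0.02 to 0.46 (adjusted p = 0.0536). It was called without MIM-Astrocytes replicate 2 (0.3, adjusted p = 0.0337) and its direction turned at a common FPKM total (-0.04, adjusted p = 0.658).

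The antisense gene Gm26735 shares 2616 exon bases with Sox4. Its values were scattered within groups, from 0.000176 to 2.4 FPKM in NSC, 0.0145 to 14.9 in MIM-Astrocytes, 1.59 to 3.67 in Astrocytes and 1.49 to 13.3 in Glioblastoma. MIM-Astrocytes replicate 1 had the highest value of Gm26735 and the lowest of Sox4 in its group. Its part in the Sox4 values was not tested.

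Sox11, the other C member, acts in young neurons and their precursors (ENSMUSG00000063632.6, chr12:27334264-27342574, minus strand, 1 exon). It stood at 11, 11.3 and 10.4 FPKM in NSC, at 7.27, 6.79 and 6.8 in MIM-Astrocytes, at 1.4, 1.42 and 1.37 in Astrocytes and at 24.2, 23.2 and 23.7 in Glioblastoma. The groups were tight and far apart, with Glioblastoma on top. MIM-Astrocytes exceeded Astrocytes by 1.73 (SE 0.05, adjusted p = 3.62e-10) and lay below NSC (-0.58, adjusted p = 2.46e-06). Glioblastoma exceeded NSC by 1.05 (adjusted p = 1.32e-08), MIM-Astrocytes by 1.64 (adjusted p = 5.29e-10) and Astrocytes by 3.37 (adjusted p = 2.01e-12). Both C members were thus low in Astrocytes, but Sox4 was lower in Glioblastoma than in NSC (-0.8, adjusted p = 3.94e-05) where Sox11 was higher. Sox4 over Sox11 came to 12.7 ± 0.516 in NSC, 9.67 ± 1.29 in MIM-Astrocytes, 11.4 ± 1.07 in Astrocytes and 3.34 ± 0.175 in Glioblastoma.

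Sox2 and both C members were higher in each other group than in Astrocytes. In Glioblastoma against NSC, Sox2 and Sox11 were higher and Sox4 was lower. The stretches before the RefSeq starts of these genes are shown here. They come from the RefSeq promoter table on GRCm38.p6, which has entries for 6 of the 8 members, all but Sox3 and Sox9. Each reads 5′ to 3′ on the gene's strand, and capitals mark CCAAT on either strand. Sox2 is chr3:34649745-34649994 (plus), Sox4 chr13:28953714-28953949 (minus) and Sox11 chr12:27342719-27342968 (minus). The RefSeq starts of Sox2 (34649995) and Sox11 (27342718) lie outside the gene positions given above, so those stretches do not adjoin them. That of Sox4 (28953699) lies inside its position, and only bases outside are printed.
Sox2: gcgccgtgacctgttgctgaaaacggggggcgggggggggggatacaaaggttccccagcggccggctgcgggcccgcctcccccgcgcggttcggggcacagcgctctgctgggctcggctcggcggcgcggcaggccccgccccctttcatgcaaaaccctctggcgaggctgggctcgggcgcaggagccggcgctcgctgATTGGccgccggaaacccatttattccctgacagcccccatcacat
Sox4: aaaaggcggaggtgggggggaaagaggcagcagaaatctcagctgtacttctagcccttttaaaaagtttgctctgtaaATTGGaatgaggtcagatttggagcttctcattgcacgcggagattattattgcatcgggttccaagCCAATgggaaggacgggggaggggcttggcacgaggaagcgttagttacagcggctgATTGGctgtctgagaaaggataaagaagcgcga
Sox11: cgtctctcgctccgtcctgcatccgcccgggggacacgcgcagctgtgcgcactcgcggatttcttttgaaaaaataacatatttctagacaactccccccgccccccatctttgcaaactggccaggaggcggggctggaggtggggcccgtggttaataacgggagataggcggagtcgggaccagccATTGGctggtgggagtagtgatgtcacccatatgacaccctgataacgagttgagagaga
In the 250 bases before the RefSeq start, CCAAT was found at 4 places in Sox4, 3 of them in the 236 bases printed, at 1 each in Sox1, Sox2 and Sox11, and at none in Sox8 and Sox21. Of 32851 promoters in the table, 33.8% held it on either strand in the same window. CANNTG, which can overlap CCAAT, was found at 1 place in Sox4, 2 in Sox11 and 1 in Sox8, and is held by 66.2% of promoters. ACAAT was found in none of the 6 and is held by 27.7%. The share of G and C was 72% in Sox2, 58% in Sox11 and 50.8% in Sox4, against a median of 52.4% over all promoters.

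Sox8, of subgroup E, was 12.6 times as high in NSC as in Astrocytes by mean FPKM (ENSMUSG00000024176.10, chr17:25565892-25570686, minus strand). It acts beside Sox10 in the oligodendrocyte lineage. It stood at 92.6, 99.6 and 84.8 FPKM in NSC, at 79.3, 85.9 and 86.3 in MIM-Astrocytes, at 6.65, 8.24 and 7.09 in Astrocytes and at 61.1, 59.2 and 60.7 in Glioblastoma. NSC and MIM-Astrocytes overlapped, Glioblastoma was below both, and Astrocytes were far below all. MIM-Astrocytes exceeded Astrocytes by 3.35 (SE 0.08, adjusted p = 1.76e-10), 83.9 ± 3.91 against 7.33 ± 0.822 FPKM, which is 11.4 times. NSC exceeded Astrocytes by 3.49 (adjusted p = 9.33e-11) and Glioblastoma did so by 2.89 (adjusted p = 1.89e-10). MIM-Astrocytes against NSC gave -0.14 with a 95% interval of -0.31 to 0.04 (adjusted p = 0.176). Glioblastoma lay below NSC (-0.6, adjusted p = 6.01e-05) and below MIM-Astrocytes (-0.47, adjusted p = 0.000383). These reached -0.92 at a common protein-coding total and -0.74 at a common FPKM total. The antisense gene 2810468N07Rik, sharing 329 exon bases with Sox8, stood at 32.6 ± 1.87 FPKM in NSC, 31.7 ± 3.8 in MIM-Astrocytes, 9.77 ± 1.27 in Astrocytes and 6.48 ± 0.389 in Glioblastoma. It moved with Sox8 in MIM-Astrocytes against Astrocytes (1.6, adjusted p = 3.07e-07), and in Glioblastoma against Astrocytes it was lower (-0.52, adjusted p = 0.000911) where Sox8 was higher.

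Sox9, the other E member, starts the switch from neurons to glia and stays on in astrocytes (ENSMUSG00000000567.5, chr11:112782224-112787760, plus strand, 3 exons). It stood at 12.6, 13 and 13.3 FPKM in NSC, at 12.9, 10.4 and 11.7 in MIM-Astrocytes, at 20.1, 15.9 and 21 in Astrocytes and at 12.5, 13.4 and 11 in Glioblastoma. All 3 Astrocytes libraries were above the 9 others, which overlapped across their groups. MIM-Astrocytes lay below Astrocytes, 11.7 ± 1.24 against 19 ± 2.68 FPKM, a log2 difference of -0.65 (SE 0.11, adjusted p = 0.000419). NSC (-0.51, adjusted p = 0.00173) and Glioblastoma (-0.58, adjusted p = 0.000598) also lay below Astrocytes. At a common FPKM total these 3 differences were wider, at -0.98, -0.89 and -1.16. The remaining differences were not called. They were -0.14 for MIM-Astrocytes against NSC (95% interval -0.39 to 0.1), -0.07 for Glioblastoma against NSC (-0.31 to 0.17) and 0.07 for Glioblastoma against MIM-Astrocytes (-0.17 to 0.32). The direction of the last turned under each of the 4 other scalings, and that of the second turned without Glioblastoma replicate 3 and was called with quantile normalization (-0.36, adjusted p = 0.0462).

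In the E pair, Sox9 exceeded Sox8 in Astrocytes and Sox8 exceeded Sox9 in the other groups. Sox8 over Sox9 came to 7.14 ± 0.668 in NSC, 7.27 ± 1.06 in MIM-Astrocytes, 4.93 ± 0.544 in Glioblastoma and 0.396 ± 0.105 in Astrocytes. Sox8 held 87.7% of the summed E level in NSC, 87.8% in MIM-Astrocytes, 83.1% in Glioblastoma and 28.1% in Astrocytes. Such ratios are taken within a library, so a scaling factor per library does not move them, and no test was made of them. Among the B1 members, Sox2 over Sox3 was 10.2 ± 0.218 in NSC, 12.4 ± 1.64 in MIM-Astrocytes, 35 ± 2.69 in Astrocytes and 101 ± 17 in Glioblastoma. Sox2 over its counterpart Sox21 followed the same order, at 3.85 ± 0.146, 4.5 ± 0.178, 8.84 ± 0.547 and 15.3 ± 0.662.

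**Figure D2:**
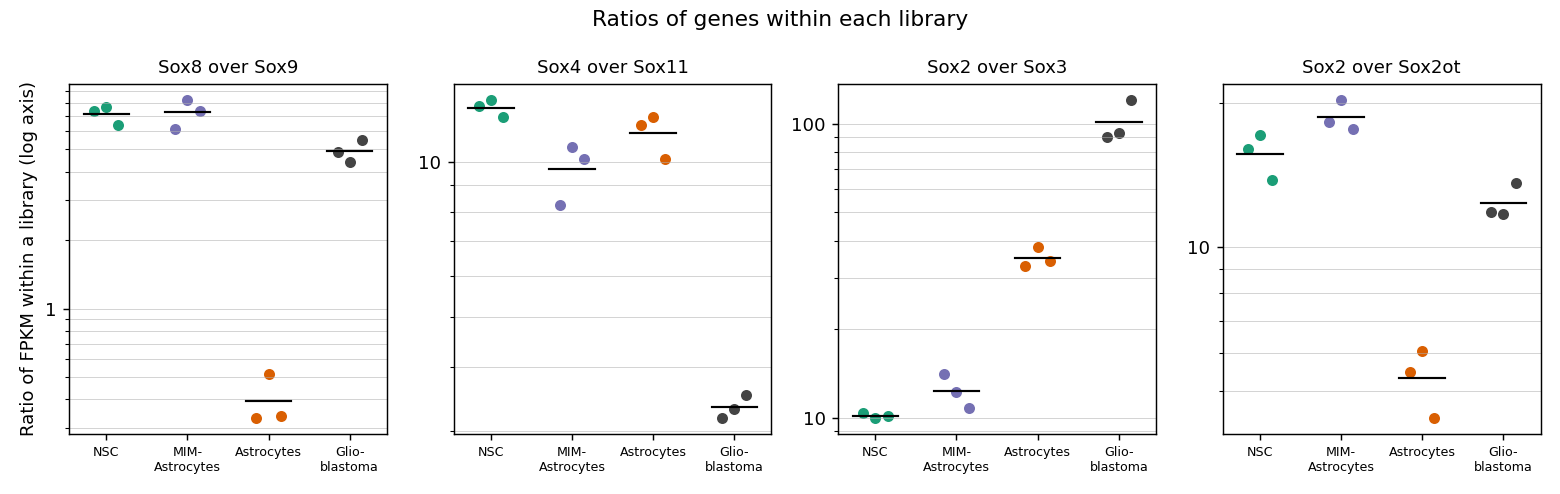
Ratio of the FPKM of 2 genes within each library (vertical log axis, own range in each panel), with 1 point per library and a bar at the mean of 3. Sox8 over Sox9 is 0.396 on average in Astrocytes, Sox4 over Sox11 is 3.34 in Glioblastoma, and Sox2 over Sox3 reaches 101 in Glioblastoma.

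Summed over the 8 members, the level was 405 ± 31.3 FPKM in NSC, 293 ± 10.5 in MIM-Astrocytes, 326 ± 9.12 in Glioblastoma and 115 ± 7.46 in Astrocytes. B1 made up 56.1 ± 2.7% of the sum in Astrocytes and 30.2 ± 0.353% in NSC, with 35.4 ± 1.38% in MIM-Astrocytes and 43.4 ± 0.818% in Glioblastoma. The share of C was highest in NSC and lowest in Astrocytes, with 37.1 ± 0.169% in NSC, 31.6 ± 0.466% in Glioblastoma, 25.2 ± 1.32% in MIM-Astrocytes and 14.9 ± 0.708% in Astrocytes. The share of E was 32.6 ± 0.894% in MIM-Astrocytes and between 22.3% and 26% on average elsewhere, and that of Sox21 was 2.74 ± 0.0745% in Glioblastoma and 5.97% to 6.76% elsewhere. MIM-Astrocytes thus had a C share below that of NSC and an E share above it. The E sum itself was 95.5 ± 2.99 FPKM in MIM-Astrocytes against 105 ± 7.24 in NSC. The B1 sum was lowest in Astrocytes, at 64.9 ± 7.27 FPKM against 122 ± 10.4 in NSC.

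**Figure D3:**
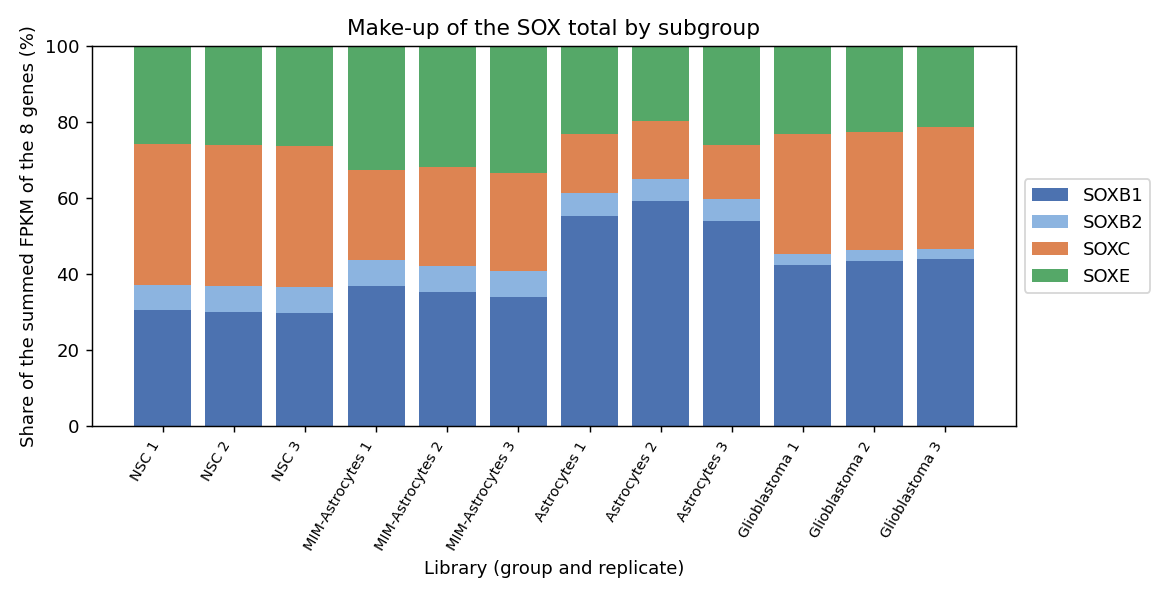
Share of the summed FPKM of the 8 genes (vertical axis, percent) held by each SOX subgroup, with 1 bar per library. SOXB1 holds 53.9% to 59.2% in Astrocytes and SOXC 36.9% to 37.2% in NSC, and the 3 libraries of a group look alike.

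By comparison, the 8 members in MIM-Astrocytes against Astrocytes had a median log2 difference of 1.5, with 0.09 over all genes tested. Sox1, Sox3, Sox4, Sox11, Sox8 and Sox21 were called and over 2-fold higher, where 9.1% of all genes were, with 2-fold counted on the log2(FPKM + 1) scale here and below. The groups did not overlap for any of the 8, as for 64.5% of genes. In NSC against Astrocytes the median was 1.93, with 0.07 over all genes, and the same 6 members were over 2-fold higher (12.8% of genes), with no overlap for any of the 8 (73% of genes). Of all calls, 56.7% were higher in the first comparison and 53% in the second, but 32% and 32.5% at a common FPKM total, which moved the median of all genes by -0.26 and -0.31. Under that scaling the 7 members kept their direction in both comparisons.

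In MIM-Astrocytes against NSC, Sox3, Sox4, Sox11 and Sox21 were called lower, where 24.9% of all genes were, and no member was called higher, where 31% were. The median over the members was -0.33, with 0.02 over all genes, and only Sox4 passed 2-fold (lower in 3.64% of genes). The groups did not overlap for 6 members, all but Sox8 and Sox9, as for 62.3% of genes. Median-of-ratios scaling, quantile normalization and a common protein-coding total each called 7 members lower, adding Sox1, Sox2 and Sox8. Of all 16982 genes these called 4867, 5123 and 5860 lower, in that order, against 4228 without them. Calls over all genes were 55.4% higher, and 42.4% higher at a common protein-coding total. All 8 members lay below NSC on average under each of the 18 alternatives.

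In Glioblastoma against NSC, Sox2 and Sox11 were called higher (44.8% of all genes) and Sox1, Sox3, Sox4, Sox8 and Sox21 lower (25.1%). The median over the members was -0.7, with 0.19 over all genes. Past 2-fold on the log2(FPKM + 1) scale were Sox11, higher (13.9% of genes), and Sox3 and Sox21, lower (7.73%). Sox1, at -0.88 on that scale, had mean FPKM that differed 2.06-fold. The groups overlapped only for Sox9, against no overlap in 75% of genes. In Glioblastoma against Astrocytes, 6 members were called higher (47%) and Sox3 and Sox9 lower (31.3%), with a median of 0.89 against 0.23. Sox2, Sox4, Sox11 and Sox8 were over 2-fold higher (21.8%), and no member's groups overlapped (79.9% of genes). In Glioblastoma against MIM-Astrocytes, Sox2 and Sox11 were called higher (41.5%) and Sox1, Sox3, Sox8 and Sox21 lower (28.3%), with a median of -0.2 against 0.13. Past 2-fold were Sox11, higher (13.3%), and Sox3 and Sox21, lower (8.68%), and again the groups overlapped only for Sox9 (no overlap in 74.5% of genes). Calls over all genes were 64.1%, 60% and 59.5% higher in these 3 comparisons. They were 47% higher at a common protein-coding total in the first, and 36.9% and 44.4% at a common FPKM total in the other two.

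**Figure D4:**
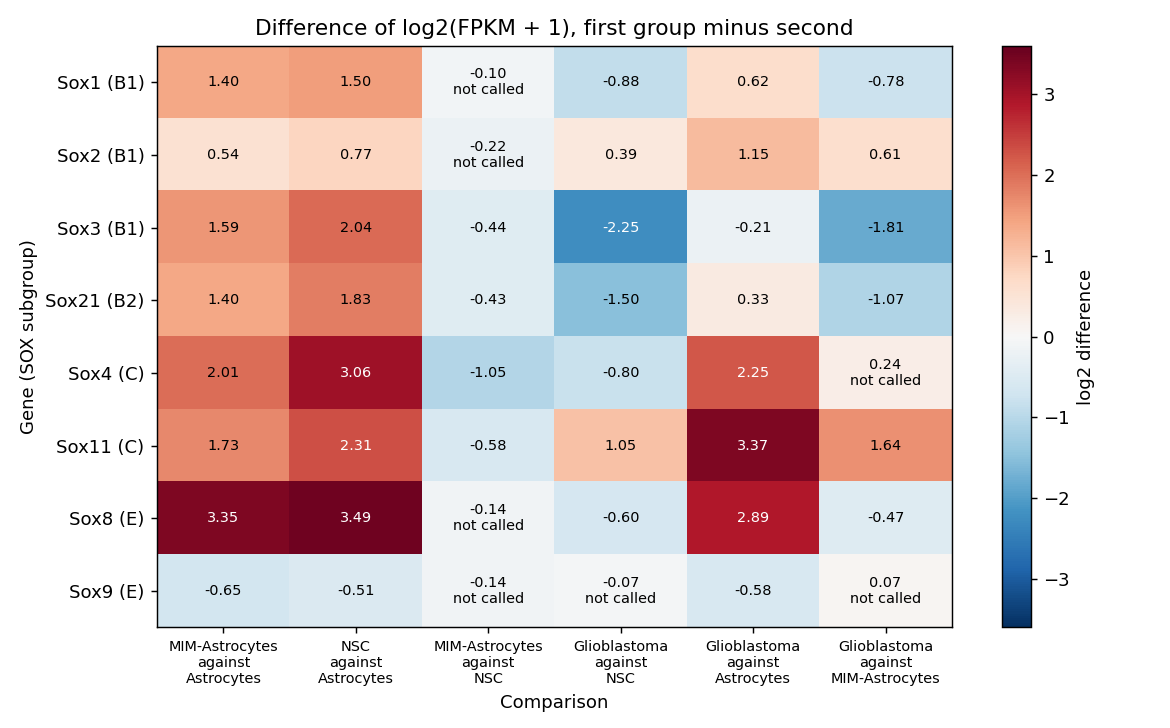
Difference of log2(FPKM + 1) for each of the 8 genes (rows, with subgroup) in 6 comparisons (columns), red where the first group is higher and blue where the second is. Sox8 reaches 3.49 in NSC against Astrocytes and Sox3 -2.25 in Glioblastoma against NSC, and differences that were not called carry those words.

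**Figure D5:**
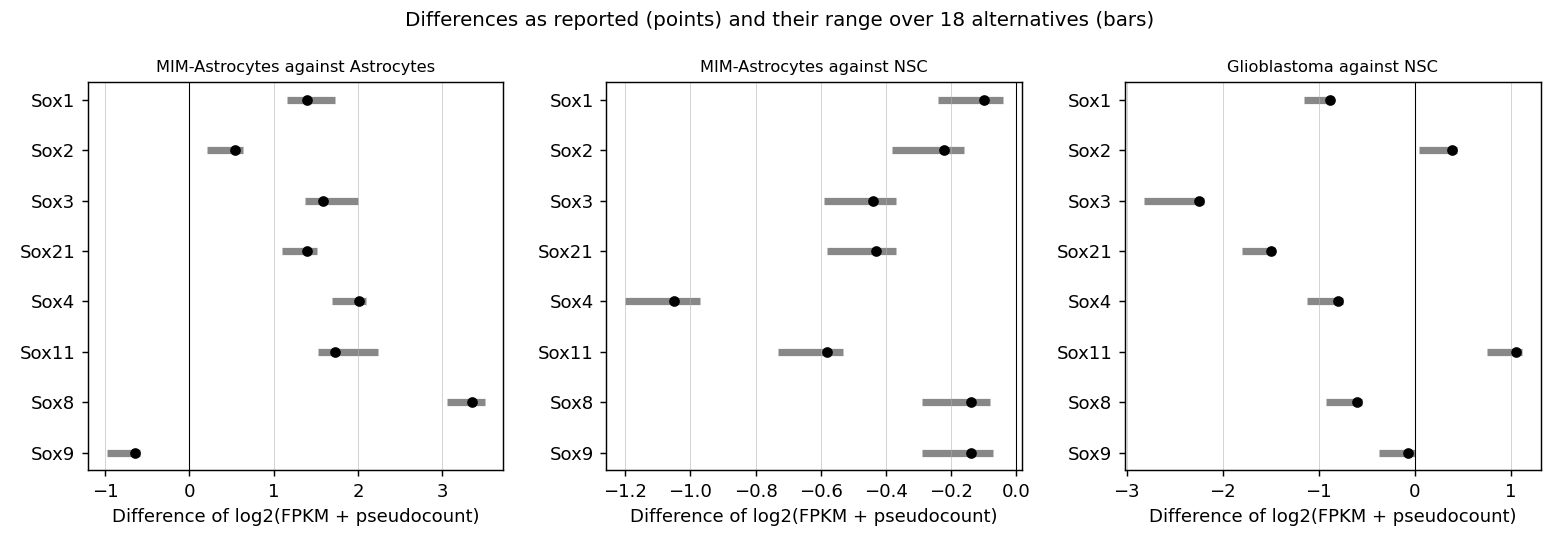
Difference on the log2 scale (horizontal axis) for the 8 genes in 3 comparisons, with a point for the value reported and a bar for its range over 18 alternative settings. In MIM-Astrocytes against Astrocytes no bar crosses 0, and in Glioblastoma against NSC the bar of Sox2 reaches down to 0.04 and that of Sox9 up to 0.00093.

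The rest of the Sox family was read from a list of 12 genes, of which 5 were tested. Sox5 and Sox6, of subgroup D, stood at 36 and 79 FPKM in NSC, 21.4 and 60.9 in MIM-Astrocytes, 10 and 42.4 in Astrocytes, and 26.4 and 54 in Glioblastoma. Sox10, the E factor that drives oligodendrocytes, stood at 2.73 ± 0.417 FPKM in NSC, 0.128 ± 0.0365 in MIM-Astrocytes, 0.0426 ± 0.0253 in Astrocytes and 0.339 ± 0.0447 in Glioblastoma. Sox10 was thus low in MIM-Astrocytes, where its relative Sox8 was near the NSC level. The C member Sox12 ran from 1.66 (Astrocytes) to 3.23 (NSC) and the D member Sox13 from 1.04 (Glioblastoma) to 2.57 (NSC). In MIM-Astrocytes against Astrocytes 3 of the 5 were called higher (34.8% of all genes) and none lower (26.6%), and in MIM-Astrocytes against NSC (24.9%) and Glioblastoma against NSC (25.1%) all 5 were called lower. In NSC against Astrocytes all 5 were higher (37.7%), in Glioblastoma against Astrocytes 4 were higher (47%) and 1 lower (31.3%), and in Glioblastoma against MIM-Astrocytes 2 were higher (41.5%) and 2 lower (28.3%).

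Of 9 partner factors 8 were tested, and 6 were called higher (34.8% of all genes) and 1 lower (26.6%) in MIM-Astrocytes against Astrocytes. Chd7, a chromatin remodeller that works with Sox2, stood at 36 ± 3.25 against 7.46 ± 0.99 FPKM (2.13, adjusted p = 5.98e-09). The POU factor Pou3f3 differed by 0.94 (adjusted p = 1.25e-07), Pou3f2 by 0.64 (adjusted p = 2.31e-06) and the nuclear factor Nfib by 1.03 (adjusted p = 8.68e-07). In NSC against Astrocytes 6 were higher (37.7%) and 1 lower (33.4%), and in MIM-Astrocytes against NSC 5 were lower (24.9%). Glioblastoma had 1 higher (44.8%) and 7 lower (25.1%) against NSC, 2 higher (47%) and 6 lower (31.3%) against Astrocytes, and 1 higher (41.5%) and 7 lower (28.3%) against MIM-Astrocytes. In Glioblastoma, with Sox2 at its highest, its partner Pax6 was at 3.59 ± 0.248 FPKM against 17.8 ± 0.94 in NSC (-2.04, adjusted p = 5.57e-09), and this gene was picked after its values were seen.

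Of 10 genes reported as SOX targets 7 were tested, and 6 were called higher (34.8% of all genes) and none lower (26.6%) in MIM-Astrocytes against Astrocytes. Tead2, a Hippo pathway factor reported as a target of Sox4 and Sox11, stood at 40.8 ± 8.43 against 7.12 ± 2.24 FPKM (2.38, adjusted p = 2.64e-06). Apcdd1, an inhibitor of WNT signalling reported as a target of Sox9 with Nfia, stood at 1.29 ± 0.0965 against 0.275 ± 0.0175 (0.84, adjusted p = 6.95e-07), and at 14.5 ± 1.08 in NSC. Mmd2, reported as another such target, differed by 0.96 (adjusted p = 8.21e-06), and Zcchc24 by 0.54 (adjusted p = 1.29e-05). Apcdd1, Mmd2 and Zcchc24 were thus higher in MIM-Astrocytes, where Sox9 itself was lower. Nfia stands on both lists, and Tubb3, a further target, had no line under that name and was not analysed here. In NSC against Astrocytes 6 were higher (37.7%) and 1 lower (33.4%), and in MIM-Astrocytes against NSC 1 was higher (31%) and 4 lower (24.9%). Glioblastoma had 1 higher (44.8%) and 5 lower (25.1%) against NSC, 4 higher (47%) and 1 lower (31.3%) against Astrocytes, and 2 higher (41.5%) and 4 lower (28.3%) against MIM-Astrocytes.

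Markers of cell types also differed between the groups, in orders that varied from list to list. The summed level of 6 genes of cycling cells was 3.21 to 3.79 FPKM in Astrocytes, 129 to 147 in NSC, 369 to 389 in Glioblastoma and 435 to 455 in MIM-Astrocytes. The 8 oligodendrocyte lineage genes, led by Olig1 and Olig2, summed to 62.2 to 72.6 in Astrocytes, 324 to 331 in Glioblastoma, 387 to 452 in NSC and 438 to 506 in MIM-Astrocytes. The 8 neuron genes, 7 of them found and most of the sum Map2, summed to 104 to 110 in Astrocytes and 275 to 303 in NSC. They summed to 169 to 189 in MIM-Astrocytes and 202 to 214 in Glioblastoma. Map2, Sox4 and Sox11 were each lowest in Astrocytes. Dcx of that list was at 3.57 FPKM in NSC, 3.4 in Glioblastoma, 0.0893 in MIM-Astrocytes and 0.0286 in Astrocytes. Snap25 was at 2.29, 0.742, 0.199 and 0.0686 in the same order of groups. Neither Dcx nor Snap25 was called in MIM-Astrocytes against Astrocytes, where Map2 was called higher. Syt1 of that list was highest in Glioblastoma (19.6 FPKM), with 3.18 in Astrocytes, 0.224 in NSC and 0.139 in MIM-Astrocytes. Stmn2 was highest in Astrocytes (1.69). The 6 mural or fibroblast genes summed to 155 to 185 in Astrocytes, most of it Ogn, and to at most 3.76 in the other groups, while the 6 microglia genes stayed between 0.457 and 1.29 in all. The 5 endothelial genes summed to 1.7 to 1.92 in Astrocytes and at most 0.618 elsewhere, and the 5 neural crest genes to 7.66 to 8.12 in Astrocytes and at most 3.8 elsewhere. Of the 8 neural stem or progenitor genes, 5 were called higher and 3 lower in MIM-Astrocytes against Astrocytes (34.8% and 26.6% of all genes). Led by Fabp7 and Vim, their sum was 5000 to 5430 FPKM in MIM-Astrocytes and 3440 to 4070 in NSC. It was 2920 to 3540 in Astrocytes and 1970 to 2180 in Glioblastoma. The part of these cells in the SOX differences was not tested. The 8 astrocyte genes were uneven in Astrocytes. Aqp4 (397 FPKM) and Gfap (258) were highest there, while S100b (5.97, against 25.4 in MIM-Astrocytes and 7.15 in NSC), Aldh1l1 (70.8, against 97.2 in NSC) and Slc1a3 (396, the lowest group mean) were not. Against Astrocytes 3 of the 8 were called higher (34.8% of all genes) and 2 lower (26.6%) in MIM-Astrocytes, near those shares. They summed to 1610 to 1890 in Astrocytes, 1460 to 1860 in MIM-Astrocytes, 776 to 890 in NSC and 563 to 591 in Glioblastoma. In Glioblastoma Aqp4 was at 0.125 FPKM and Gjb6 was listed at 0. The 5 markers of cerebellar granule neuron progenitors summed to 3.27 to 4.08 FPKM in Glioblastoma, most of it Zic2 (3.54). Atoh1 was at 0.037 there and Zic1 at 0.0457 FPKM. The same markers summed to 28.4 to 33.5 in NSC, 15.1 to 23.6 in MIM-Astrocytes and 21.9 to 25.2 in Astrocytes. Atoh1 was listed at 0 in those groups, and Zic1 was at 24.1, 15.3 and 15.3 FPKM.

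For the most abundant member of each subgroup, the genes with the most similar pattern were taken by Pearson's r of log2(FPKM + 1) over the 12 libraries, among 12519 protein-coding genes. These were Rpl36 (0.997), Snx8 (0.996) and Parp1 (0.994) for Sox2, and Btg2 (0.997), Slitrk2 (0.996) and Dll3 (0.996) for Sox4. Those of Sox8 were Klhl5, Cdh20 and Wscd1 (all 0.997), and those of Sox21 were Lpcat1 (0.997), B3gat1 (0.995) and Car8 (0.994). The 12 points fall into 4 groups, so these values follow the order and spacing of 4 means. Between members, r was 0.98 for Sox2 with Sox11, 0.97 for Sox21 with both Sox1 and Sox3, 0.95 for Sox4 with Sox8, 0.05 for Sox2 with Sox3 and -0.89 for Sox8 with Sox9. Within subgroups it was also 0.9 for Sox1 with Sox3, 0.83 for Sox4 with Sox11 and 0.45 for Sox1 with Sox2.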

How the data were processed

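RNA sequencing of total RNA gave 12 mouse libraries, 3 in each of 4 groups. The authors deposited 1 FPKM table per library, in which each gene has a value, its bounds and a status, made with Cufflinks (version not given) on GRCm38, per the submitters' processing notes. The aligner, the strandedness and the read depth are not given in the sources used here. Lines of 45 identifiers that stood more than once were added. Genes were tested where they reached 1 FPKM in at least 3 libraries with status OK in all 12, which left 16982. Values of log2(FPKM + 1) were fitted with limma 3.58.1 in R 4.3.3 (1 mean per group, 8 residual degrees of freedom, a variance prior that follows the mean), two-sided, with Benjamini-Hochberg adjustment over all genes tested. The fit was tested on simulated data. Summaries used pandas 2.3.3 and NumPy 2.4.6 under Python 3.11.15, and matplotlib 3.10.9 drew the figures.

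The members and the lists of family genes, partners, targets and markers were chosen with earlier results of these data known. Named were all members, the tested family genes, transcripts overlapping members, up to 4 partners and 4 targets with the smallest p in MIM-Astrocytes against Astrocytes, and the 3 genes most alike to the leading member of each subgroup. Transcripts overlapping members were matched by Ensembl identifier to GENCODE M21. Sums, shares and ratios are descriptions without a test. The alternatives took 0.1 or 0.5 as pseudocount, tested every gene or those with a mean of 5 FPKM or more, and used 3 scalings between libraries, robust variances, array weights, the 6 libraries of a comparison alone, a replicate block, and each library left out in turn. A common protein-coding total was chosen after seeing the data.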

Additional observations from a re-analysis of the deposited data

How the results depend on the processing

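Of 48 differences of members, 37 kept their direction and their side of the threshold under all 18 alternatives. With a mean of at least 5 FPKM fewer genes are tested, and calls over all genes were 6807 in MIM-Astrocytes against Astrocytes, 7745 in NSC against Astrocytes, 7681 in Glioblastoma against NSC, 8446 in Glioblastoma against Astrocytes and 7665 in Glioblastoma against MIM-Astrocytes, against 10423, 12087, 11876, 13294 and 11847. In MIM-Astrocytes against NSC 7 members in place of 4 were called under median-of-ratios scaling, quantile normalization and a common protein-coding total, all lower. Of all 16982 genes 4867, 5123 and 5860 were then called lower, in that order, in place of 4228. Directions turned for Sox9 in Glioblastoma against NSC without Glioblastoma replicate 3 (0.00093, with -0.13 as the lowest when another library is left out), for Sox21 in Glioblastoma against Astrocytes (-0.22) and Sox4 in Glioblastoma against MIM-Astrocytes (-0.04) at a common FPKM total. For Sox9 in Glioblastoma against MIM-Astrocytes they turned with median-of-ratios (-0.1), quantile (-0.12), common FPKM total (-0.18) and common protein-coding total (-0.08). Beyond what the scalings themselves do, the cause was not tested. The limma array weights stopped before they converged, and with them Sox1 and Sox2 in MIM-Astrocytes against NSC and Sox4 in Glioblastoma against MIM-Astrocytes gained a call. The last was also called in the 6 libraries alone (adjusted p = 0.0479). Sox3 in Glioblastoma against Astrocytes lost its call with no filter (adjusted p = 0.0695) and with a mean of at least 5 FPKM (0.0555).

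Over all comparisons, deviations from group means correlated at -0.058 to 0.097 between libraries that share a replicate number. Between libraries with other numbers they correlated at -0.121 to 0.074. In NSC against Astrocytes the 2 ranges were apart, at 0.044 to 0.097 for shared numbers and -0.07 to -0.003 for others. In the other comparisons they overlapped. The numbers are not said to pair samples and were not taken to do so, but these values do not exclude a pairing. A replicate block called 9495 genes in MIM-Astrocytes against Astrocytes and 8338 in MIM-Astrocytes against NSC (9629 and 8985 in the same 6 libraries without it). Only in NSC against Astrocytes did the block call more genes, 11961 against 11578. With the block Sox2 gained a call in MIM-Astrocytes against NSC (adjusted p = 0.0488), and no other member's call changed. The files hold no counts, so depth limits are known only through the deposited intervals.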
